A study of Mus musculus with 8 samples.

Results

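The 9 genes that encode the urea cycle and its supply of ammonia were followed in the livers of mice with and without RBFOX2, an RNA-binding protein that regulates splicing. The 9 were taken by gene symbol (among them *Cps1*, *Otc*, *Ass1*, *Asl*, *Nags*, *Slc25a15*, *Slc25a13* and *Gls2*), each symbol matched 1 gene identifier in the GRCm38 annotation, and they are 9 of the 46078 identifiers counted and 9 of the 13856 genes with enough reads to be tested. RNA-seq had been performed on whole livers of 4 LWT mice (Rbfox2 loxP/loxP without Albumin-cre, labelled wild-type) and 4 LΔRbfox2 mice (Rbfox2 loxP/loxP with Albumin-cre, labelled as the knockout), so both groups carried floxed alleles and the deletion was driven in hepatocytes by the albumin promoter. All 8 mice ate control chow, which began at 8 weeks of age. Time on the diet was 12 weeks by the labels, and a longer range is written in the methods, where mice are male unless stated otherwise. Livers were taken after 16 h of fasting, and each library is 1 liver of 1 mouse. Total counts per liver lay between 37482458 and 56177588. The labels give no sequencing batch or date.

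Ammonia is toxic, and the liver is the organ that turns most of it into urea. In periportal hepatocytes, the mitochondrial enzyme CPS1 joins ammonia to bicarbonate, OTC passes the product to ornithine to give citrulline, and in the cytosol ASS1 builds argininosuccinate and ASL cleaves it to arginine, from which urea is released and ornithine restored. CPS1 works only with N-acetylglutamate, made by NAGS, while the carriers SLC25A15 and SLC25A13 move ornithine and aspartate across the mitochondrial membrane and the liver-type glutaminase GLS2 frees ammonia from glutamine. Ammonia that escapes this route is caught by glutamine synthetase (*Glul*) in the hepatocytes around the central vein.

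*Rbfox2* was lower in every LΔRbfox2 liver than in every LWT liver. Its level was 17.1, 10.4, 11.4 and 18.3 CPM (counts scaled to library size and TMM factor) in LWT replicates 1 to 4, and 4.61, 6.09, 2.24 and 3.19 CPM in LΔRbfox2 replicates 1 to 4. The LΔRbfox2 mean was 28.2% of the LWT mean (log2 fold change −1.82, SE 0.32; two-sided exact permutation test of log2 CPM, *P* = 0.0286, the smallest that 4 against 4 allows), and the labels therefore matched the deleted gene. Over all 13856 genes, edgeR's adjusted *P* for *Rbfox2* was 0.504.

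Some libraries stood apart from the rest. LΔRbfox2 replicates 3 and 4 had TMM factors of 0.724 and 0.776, while the other 6 livers lay between 1.02 and 1.14. Counts of the abundant major urinary protein genes took 43.6% and 37.5% of these 2 libraries, 37.1% of LWT replicate 1, and 21.4% to 29.1% of the other 5. On the main axis of variation, which held 54.1% of the variance of all genes, LWT replicates 1 and 4 and LΔRbfox2 replicate 2 lay at one end (−59.4, −54.6 and −35.9) and the other 5 livers between 3.97 and 56.0, so this axis did not separate the genotypes.

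None of the 9 members differed between the genotypes past the threshold. At an edgeR adjusted *P* of at most 0.05, 0 of 9 members were called beside 0.0% of all genes tested. At an unadjusted *P* under 0.05 it was again 0 of 9, beside 9.79% of all genes (1356 of 13856), and 0 of 9 had livers that did not overlap between genotypes, beside 2.28% (316 genes). Single livers moved the unadjusted count: it was 608, 2531, 852 and 505 genes without LWT replicates 1 to 4 in turn, and 1027, 3475, 550 and 404 without LΔRbfox2 replicates 1 to 4 in turn. Without LΔRbfox2 replicate 2, 1 of 9 members (*Otc*, log2 fold change 0.62, edgeR adjusted *P* = 0.115) was also under 0.05 unadjusted, beside those 3475 of 14005 genes. limma-voom called 0 genes (979 unadjusted) and DESeq2 called 10 (1647 unadjusted), with no member among them. Each member's 95% interval for the log2 fold change included 0, and the outermost bounds were −0.73 (*Cps1*) and 0.96 (*Otc*). In whole liver, fewer hepatocytes of a zone and less RNA per hepatocyte cannot be told apart.

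RBFOX2 recognizes the RNA motif UGCAUG, written here as TGCATG, and the spliced transcripts of the members were searched for it, because it is the sequence through which the deleted protein binds RNA. In the principal transcript of each member the motif was found once in 4 of 9, on the transcript strand, and not in the other 5 (*Ass1*, *Asl*, *Nags*, *Slc25a15* and *Slc25a13*). This was 0.163 motifs per kb of member transcript, against 0.28 over the transcripts of all 12143 coding genes tested, 54.9% of which hold it. The matches in *Cps1*, *Otc* and *Gls2* are shown with 9 bases on each side, the motif in capitals. Those of *Cps1* (position 1233) and *Gls2* (position 600) are in coding sequence and that of *Otc* (position 1339) is in the 3′ UTR, counted from the first base of the transcript.
Cps1: aggggattaTGCATGagagcaaac
Otc: catccctagTGCATGgtatgatta
Gls2: ctccaggacTGCATGagcaagatg
Introns were not searched, and a match of letters is not a binding site.

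To compare levels between genes, CPM was divided by the exon length of each gene. *Ass1* was the most abundant member, at 1091 ± 182 CPM per kb in LWT and 1199 ± 242 in LΔRbfox2 livers (SD, n = 4 each), and its lowest liver (935) exceeded the highest *Cps1* liver (684). *Cps1* was at 452 ± 162 CPM per kb in LWT and 450.5 ± 162 in LΔRbfox2 livers. All of its livers lay above those of *Asl* (134 ± 16.8 CPM per kb in LWT), which ranged from 89.2 to 187 over the 8 livers. A group of 4 genes followed whose ranges overlapped, *Gls2* (76.1 ± 8.31 CPM per kb in LWT), *Otc* (56.0 ± 9.88), *Slc25a13* (53.8 ± 7.28) and *Slc25a15* (51.9 ± 1.10). *Nags* was lowest, at 12.8 ± 1.14 CPM per kb in LWT and 13.1 ± 0.471 in LΔRbfox2 livers. With the length of the principal transcript in place of all annotated exons, the order was the same except that *Slc25a15* (85.1 CPM per kb in LWT) stood above *Slc25a13* (65.4). *Glul*, the pericentral ammonia scavenger, whose exons share 116 bases with *Teddm2* on the opposite strand and 93 with *Mir8114*, was at 123 ± 13.6 CPM per kb in LWT livers, and *Glud1*, which encodes glutamate dehydrogenase, was at 140 ± 22.9.

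**Figure D1:**
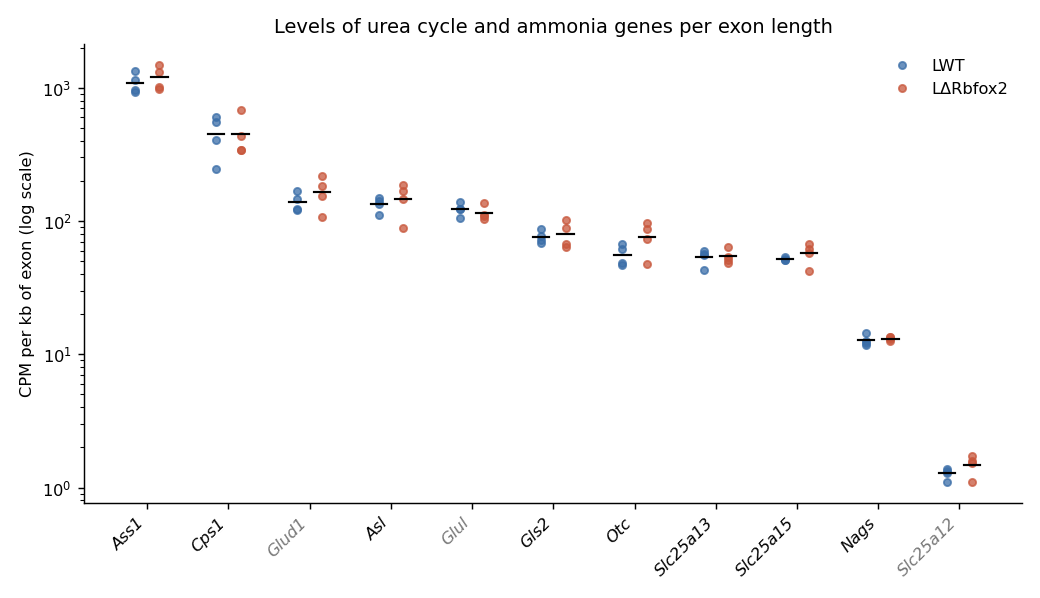
Level of 8 members (black names) and of *Glud1*, *Glul* and *Slc25a12* (grey names) in CPM per kb of exon on a log axis; points are single livers, blue for LWT and red for LΔRbfox2, and black bars are means of 4 livers. *Ass1* is highest and *Nags* the lowest member, and in every gene the points of the genotypes overlap.

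The carrier isoforms of other tissues were far below the liver forms. *Slc25a13* exceeded its paralogue *Slc25a12*, the aspartate carrier gene of muscle and brain, by 30.5-fold to 51.2-fold per exon length in the 8 livers (median 42.6). *Slc25a2*, a second ornithine carrier gene, had 23 counts over the 4 LWT livers and 9 over the 4 LΔRbfox2 livers, where *Slc25a15* had 52454 and 57141. Per exon length, these summed counts of *Slc25a15* exceeded those of *Slc25a2* 555-fold in LWT and 1540-fold in LΔRbfox2 livers. *Slc25a2* had too few counts to be tested, and *Slc25a12* did not differ between genotypes past the threshold (log2 fold change 0.22, adjusted *P* = 0.627, edgeR).

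The members together took between 0.561% (LΔRbfox2 replicate 4, 95% Wilson interval 0.5588% to 0.5633%) and 1.04% (LΔRbfox2 replicate 2, 1.037% to 1.043%) of all counts of a liver. In LWT replicates 1 to 4 the share was 0.797%, 0.727%, 0.958% and 0.989%, and in LΔRbfox2 replicates 1 and 3 it was 1.02% and 0.666%. The lowest shares were therefore those of the 2 LΔRbfox2 livers with low TMM factors, and after TMM scaling the summed level was 7806, 6563, 8677 and 8788 CPM in LWT replicates 1 to 4 and 9197, 9122, 9199.8 and 7235 CPM in LΔRbfox2 replicates 1 to 4. *Cps1* and *Ass1* together supplied 55.0% to 69.7% of the member counts of each liver. The smallest count behind any value was 1235 (*Nags*), and the intervals of shares cover counting error only.

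Among the mitochondrial steps, *Cps1* (chr1:67123026-67231259, plus strand), the entry enzyme of the cycle, varied most between livers and not by genotype. It was at 3057, 1365, 2246 and 3373 CPM in LWT replicates 1 to 4 and at 2423, 3797, 1903 and 1885 CPM in LΔRbfox2 replicates 1 to 4. The highest liver exceeded the lowest 2.78-fold, the groups overlapped except for LΔRbfox2 replicate 2 above and LWT replicate 2 below every liver of the other genotype, and the 3 highest livers were the 3 at the negative end of the main axis of variation (LWT replicates 1 and 4 and LΔRbfox2 replicate 2). Means were 2510.0 ± 899 and 2502 ± 899 CPM (SD, n = 4), and the log2 fold change was −0.0044 (SE 0.33, 95% interval −0.73 to 0.73, adjusted *P* = 0.995).

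*Otc* (chrX:10252305-10321024, plus strand), which makes citrulline, had the largest difference between genotypes of the 9 members under TMM scaling with all 8 livers. Its level was 200.1, 284, 261 and 204 CPM in LWT replicates 1 to 4 and 312, 201, 409 and 370.2 CPM in LΔRbfox2 replicates 1 to 4. LΔRbfox2 replicates 1, 3 and 4 lay above every LWT liver, while replicate 2 lay among the lowest LWT livers. The mean was 237 ± 41.9 CPM in LWT and 323 ± 90.7 CPM in LΔRbfox2 livers (SD, n = 4), a log2 fold change of 0.44 (SE 0.24, 95% interval −0.12 to 0.96) with an adjusted *P* of 0.529. The size of this difference moved with the scaling and with 2 libraries: it was 0.16 with total counts, 0.18 after correction of each library for gene length and GC content, and 0.081 without LΔRbfox2 replicates 3 and 4, the livers of low TMM factor (an alternative chosen after seeing the data). In none of these 3 settings was it the largest, since *Slc25a13* (−0.23) exceeded it in size with total counts, *Asl* (0.31) after the correction and *Cps1* (0.30) without the 2 livers.

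*Nags* and *Slc25a15* serve the same compartment. *Nags* (chr11:102145513-102149477, plus strand), the enzyme that makes the activator of CPS1, was under TMM scaling the steadiest member over all 8 livers, from 33.6 to 40.9 CPM, with a log2 fold change of 0.040 (95% interval −0.27 to 0.36). After the length and GC correction it spanned 4.91 to 5.47 log2 CPM, more than *Slc25a13* (7.47 to 7.90). The exons of *Nags* share 443 bases (15.6% of their length) with the antisense gene *Gm11586*, and although the reads were aligned as a stranded library, the strand setting of the counting is not given in the sources used here, so reads there cannot be assigned to either gene. *Slc25a15* (chr8:22375551-22398597, minus strand), the ornithine carrier, was at 292, 301, 287 and 289 CPM in LWT replicates 1 to 4 and at 326, 345, 381 and 237 CPM in LΔRbfox2 replicates 1 to 4. The LWT livers lay close together, and the LΔRbfox2 livers were spread around them, 3 above and replicate 4 below (log2 fold change 0.14, SE 0.18, adjusted *P* = 0.721).

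In the cytosol, *Ass1* (chr2:31470207-31520672, plus strand), which joins citrulline to aspartate, was at 2257, 2319, 3203 and 2751 CPM in LWT replicates 1 to 4 and at 3591, 2374, 3159 and 2450.5 CPM in LΔRbfox2 replicates 1 to 4. LΔRbfox2 replicate 1 was the highest liver and LWT replicates 1 and 2 were the lowest, while the other 5 livers overlapped (log2 fold change 0.14, SE 0.21, adjusted *P* = 0.774). *Asl* (chr5:130011258-130029247, minus strand), which cleaves argininosuccinate, was at 679, 536, 726 and 651 CPM in LWT replicates 1 to 4 and at 707, 811, 904 and 431 CPM in LΔRbfox2 replicates 1 to 4. As for *Slc25a15*, LΔRbfox2 replicate 4 was the lowest and replicate 3 the highest liver (log2 fold change 0.14, SE 0.24, adjusted *P* = 0.795).

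The suppliers of nitrogen did not separate by genotype either. *Slc25a13* (chr6:6041218-6217173, minus strand), the carrier that brings aspartate to the cytosol, ranged from 164 to 226 CPM in LWT and from 183 to 243 CPM in LΔRbfox2 livers, with a log2 fold change of 0.015 (95% interval −0.36 to 0.40). *Gls2* (chr10:128194457-128210004, plus strand) was at 236, 252, 303 and 266 CPM in LWT replicates 1 to 4 and at 354, 220.4, 306 and 233 CPM in LΔRbfox2 replicates 1 to 4. Its highest and its lowest liver were both LΔRbfox2 livers (log2 fold change 0.074, SE 0.19, adjusted *P* = 0.874), and 97 bases of its exons (2.79%) are shared with *Spryd4* on the opposite strand.

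**Figure D2:**
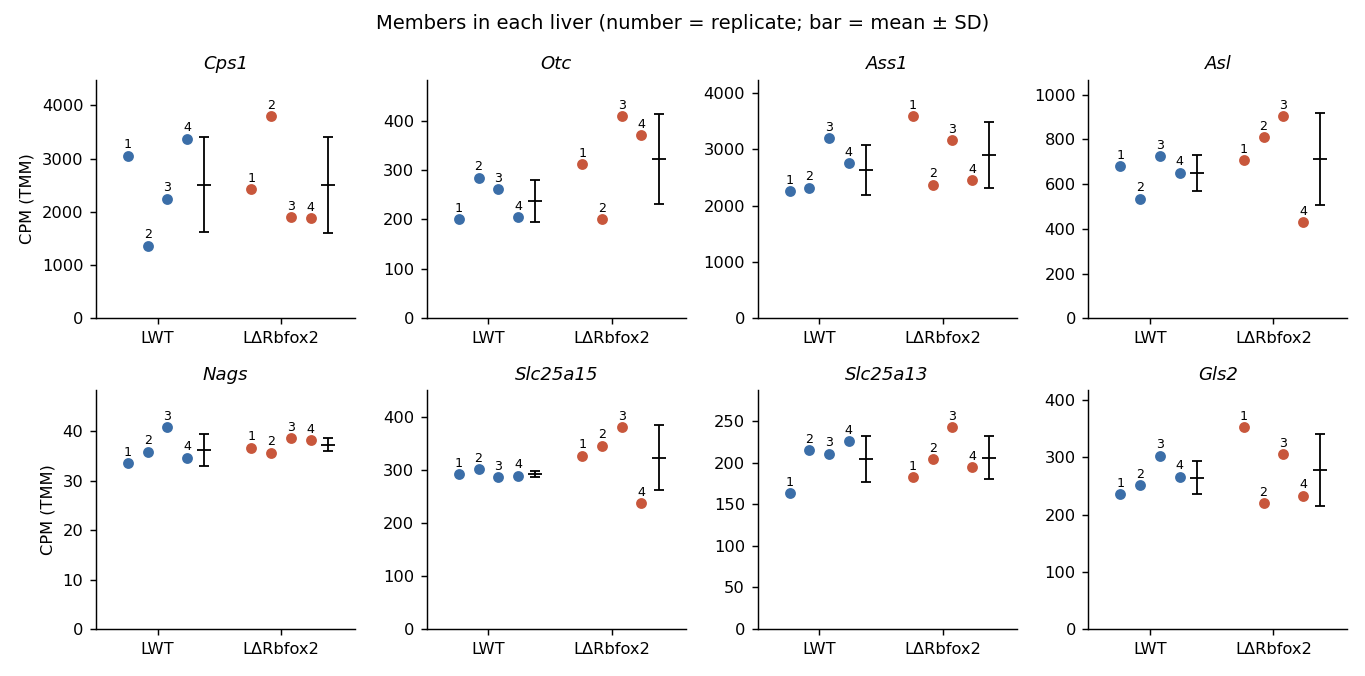
CPM after TMM scaling (vertical axis, from 0) of 8 members in 4 LWT livers (blue) and 4 LΔRbfox2 livers (red); numbers are replicates and black bars are means ± SD. The genotypes overlap in every panel; *Cps1* spans 1365 to 3797 CPM, and *Nags* stays between 33.6 and 40.9 CPM.

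As a group, the members had a median log2 fold change of 0.14, beside −0.015 for all 13856 genes, and 8 of 9 were above 0 (48.4% of all genes). This direction depended on the scaling: with total counts in place of TMM, the median of all genes was −0.23, that of the members −0.082, and 2 of 9 members (*Otc* among them, at 0.16) were above 0. With total counts the genes at an unadjusted *P* under 0.05 also changed from 1102 higher and 254 lower in LΔRbfox2 livers to 203 higher and 393 lower. On both scales the member median lay above that of all genes, with no member past the threshold. Exon length was related to the genotype difference across all genes, with a median log2 fold change of 0.30 in the 3452 genes of shortest exon length (56 to 2369 bases) and −0.18 in the 3452 of longest (6466 bases or more), and 0.018 and −0.081 after the length and GC correction. *Ass1* has 2414 bases of exon, *Otc* 4241 and *Cps1* 5555, and after that correction the member median was 0.17.

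**Figure D3:**
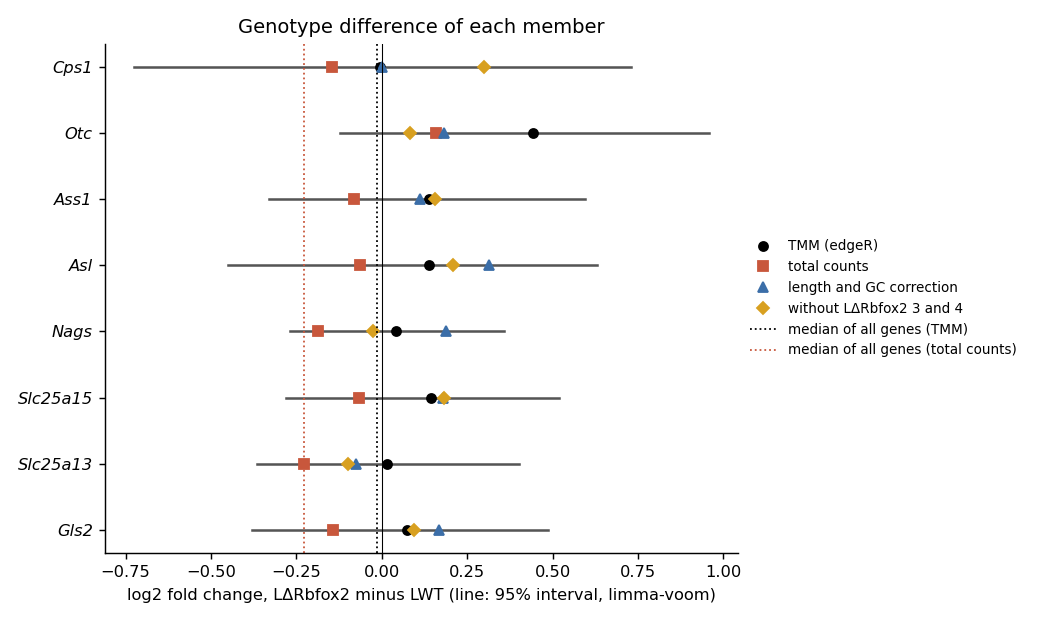
Log2 fold change of 8 members (LΔRbfox2 minus LWT) with its 95% interval from limma-voom (line) under TMM (circle), total counts (square), length and GC correction (triangle) and without LΔRbfox2 replicates 3 and 4 (diamond); dotted lines are medians of all genes. Every interval includes 0, and with total counts all points shown but that of *Otc* lie under 0.

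Ratios within a library do not depend on the factor by which that library is scaled, but effects of gene length and GC content can remain in them. Of such ratios 3 were tested, with *P* adjusted over the 3. The log2 ratio of *Cps1* to *Glul* counts sets the urea route against the glutamine route. It was 2.90, 1.96, 2.28 and 3.03 in LWT replicates 1 to 4 and 2.82, 3.06, 2.36 and 2.38 in LΔRbfox2 replicates 1 to 4, so that the groups overlapped (difference 0.11, two-sided exact permutation test, *P* = 0.657, adjusted *P* = 0.886). The log2 ratio of *Gls2* to *Glul*, the enzymes at the periportal and pericentral ends of glutamine exchange, was −0.80, −0.48, −0.61 and −0.63 in LWT and 0.043, −1.04, −0.28 and −0.64 in LΔRbfox2 replicates 1 to 4. The LΔRbfox2 livers held both the highest and the lowest ratio (difference 0.15, exact permutation test, *P* = 0.600, adjusted *P* = 0.886). For *Asl* to *Ass1*, consecutive steps of the cytosol, the log2 ratio was −1.73, −2.11, −2.14 and −2.08 in LWT and −2.34, −1.55, −1.80 and −2.51 in LΔRbfox2 replicates 1 to 4 (difference −0.035, exact permutation test, *P* = 0.886, adjusted *P* = 0.886). No ratio of these counts differed between genotypes beyond the spread between livers. The ratios were not tested after the length and GC correction, which moved the log2 fold changes of their genes. For *Asl* and *Ass1* these were 0.31 and 0.11 (0.14 and 0.14 under TMM scaling). For *Gls2*, *Glul* and *Cps1* they were 0.17, −0.14 and 0.00021 (0.074, −0.096 and −0.0044 under TMM scaling).

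Although genotype did not separate them, some members varied together from liver to liver. Over the 8 livers, 36 pairs of members were correlated (log2 CPM), of which 28 had a positive r. The share of positive r over pairs of all genes was not tested, so this count is a description. How often pairs of all genes reach an r as high was not tested either. The main axis held 54.1% of the variance of all genes, so the *P* values below do not show that member pairs stand out among genes. *Ass1* and *Gls2* had the highest r under TMM scaling, with Pearson's r = 0.954 (exact permutation *P* = 0.000942, adjusted over the 36 pairs 0.0339) and Spearman's rho = 0.786 (exact permutation *P* = 0.0279, adjusted 0.335). Without the 2 livers farthest from the median of *Ass1*, r was 0.884. It was 0.964 within genotypes, 0.976 with total counts and 0.861 after the length and GC correction, where *Asl* with *Slc25a15* (0.905) and *Otc* with *Gls2* (0.891) lay above it, and by rho it was not the highest pair. Both genes were highest in LΔRbfox2 replicate 1, with LWT replicate 3 and LΔRbfox2 replicate 3 next.

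*Cps1* and *Otc*, the consecutive mitochondrial steps, ran against each other. Their r was −0.746 (exact permutation *P* = 0.0369, adjusted 0.265) and rho −0.714 (exact permutation *P* = 0.0576, adjusted 0.415), which did not pass the adjustment. Without the 2 livers farthest from the median of *Cps1*, r was −0.937, within genotypes it was −0.899, with total counts −0.644 and after the length and GC correction −0.682. LWT replicates 1 and 4 and LΔRbfox2 replicate 2, the 3 highest livers for *Cps1*, were the 3 lowest for *Otc*.

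**Figure D4:**
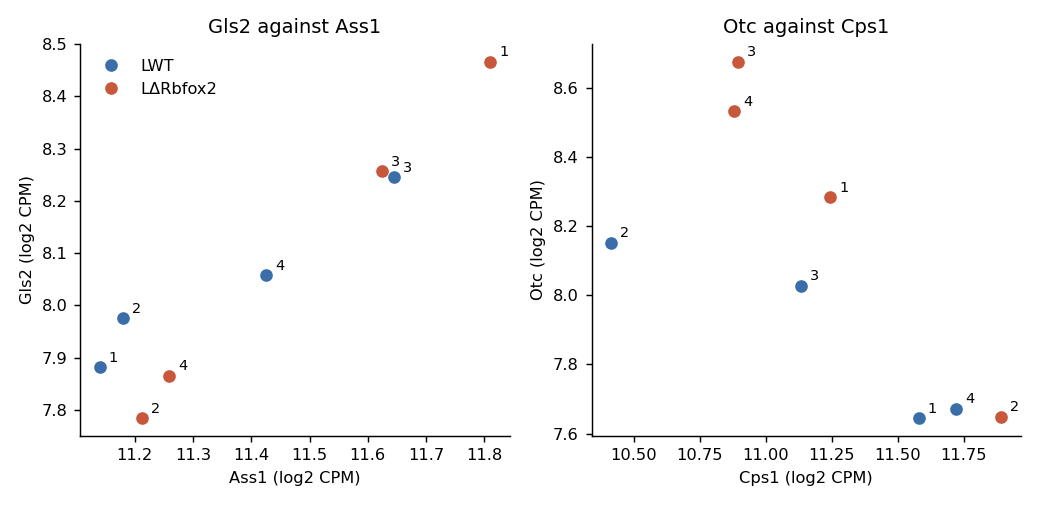
*Gls2* against *Ass1* (left) and *Otc* against *Cps1* (right), in log2 CPM after TMM scaling. Each point is 1 liver, blue for LWT and red for LΔRbfox2, with its replicate number, and livers of both genotypes lie along both relations (r = 0.954 and −0.746 over 8 livers).

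*Asl* and *Slc25a15* had r = 0.879 (exact permutation *P* = 0.00598, adjusted 0.0717) and rho = 0.690 (exact permutation *P* = 0.0694, adjusted 0.416). It was 0.886 within genotypes, 0.928 with total counts and 0.905 after the length and GC correction. The r was 0.499 without the 2 livers farthest from the median of *Asl*, so over the 8 livers this relation rested on them. All these correlations share 8 libraries, their scaling and their base composition.

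**Figure D5:**
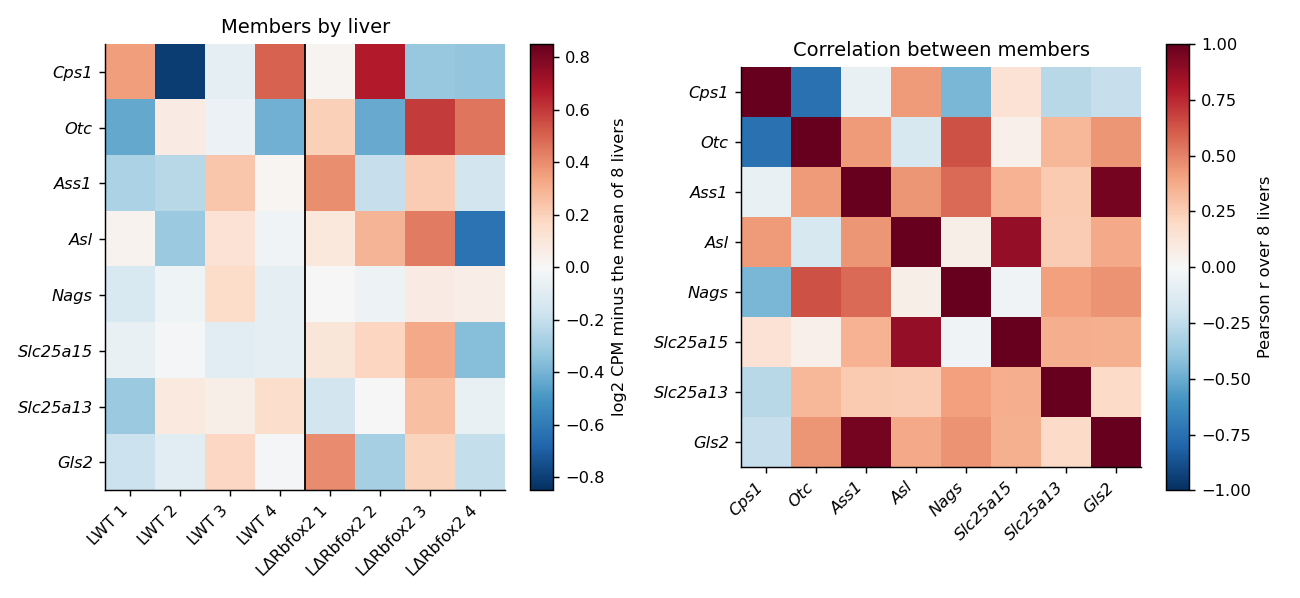
Left, log2 CPM of 8 members in each liver minus the mean over the 8 livers (red above, blue below; the line separates LWT from LΔRbfox2). Right, Pearson's r between these members over the 8 livers, from −1 (blue) to 1 (red); *Ass1* with *Gls2* (0.954) is the highest pair and *Cps1* with *Otc* (−0.746) the lowest.

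The members were also looked at in their promoters, of which RefSeq (GRCm38.p6) entries of 300 bases around the start were at hand for 5 of 9 members (*Otc*, *Ass1*, *Nags*, *Slc25a13* and *Slc25a15*, the last with 2 entries). *Otc* and *Ass1* are shown, as their start regions differ in their content of the dinucleotide CG (in capitals, the same on both strands). The *Otc* window (chrX:10252055-10252354, plus strand, GC content 44.3%) holds 1 CG, and 14.1% of all 32851 promoter entries hold 1 or none. The *Ass1* window (chr2:31470020-31470319, plus strand, GC content 74.0%) holds 27, and 15.5% of all entries hold as many or more. The median of all entries is 7.
Otc: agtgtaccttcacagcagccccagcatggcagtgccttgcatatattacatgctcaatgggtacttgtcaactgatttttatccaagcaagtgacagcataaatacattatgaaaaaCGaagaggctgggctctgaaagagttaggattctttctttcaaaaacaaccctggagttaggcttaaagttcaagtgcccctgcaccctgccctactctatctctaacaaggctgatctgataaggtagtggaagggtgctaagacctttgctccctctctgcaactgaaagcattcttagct
Ass1: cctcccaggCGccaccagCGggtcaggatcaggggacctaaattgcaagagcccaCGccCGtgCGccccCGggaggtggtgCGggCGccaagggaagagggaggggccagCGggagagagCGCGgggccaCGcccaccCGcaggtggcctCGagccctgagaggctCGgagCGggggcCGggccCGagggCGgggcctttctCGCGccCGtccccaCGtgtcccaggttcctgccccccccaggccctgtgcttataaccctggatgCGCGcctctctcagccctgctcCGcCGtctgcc
*Nags* had 14 CG, *Slc25a13* 17 and *Slc25a15* 51 and 15 in its 2 entries, and the r of *Otc* with *Ass1* over the livers was 0.429 (exact permutation *P* = 0.276, adjusted 0.626, with rho = 0.524, exact permutation *P* = 0.197, adjusted 0.644, and r = 0.145 without the 2 livers farthest from the median of *Otc*).

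Other genes of nitrogen metabolism were compared too. Of 30 such genes (glutamine, proline, aspartate and ammonia enzymes and carriers), 26 could be tested and 0 were called with edgeR, beside 0.0% of all genes. At an unadjusted *P* under 0.05, 1 was higher and 1 lower in LΔRbfox2 livers, beside 9.79% of all genes in either direction. The median log2 fold change of the 26 genes was 0.027 (−0.18 with total counts). *Prodh*, which starts proline breakdown, was at 92.9, 62.7, 81.7 and 100.4 CPM in LWT replicates 1 to 4 and at 42.4, 68.7, 60.6 and 43.2 CPM in LΔRbfox2 replicates 1 to 4, with LΔRbfox2 replicate 2 above the lowest LWT liver (log2 fold change −0.65, SE 0.22, adjusted *P* = 0.504). *Fh1*, the fumarase that takes up the fumarate released by ASL, was at 146, 179, 180.2 and 201 CPM in LWT and at 287, 214, 284 and 212 CPM in LΔRbfox2 replicates 1 to 4. Under TMM scaling every LΔRbfox2 liver was above every LWT liver for *Fh1* (log2 fold change 0.50, SE 0.18, adjusted *P* = 0.504), as for 2.28% of all genes in either direction. After the length and GC correction the log2 fold change was −0.37 for *Prodh* and 0.36 for *Fh1*. With total counts the *Fh1* difference was 0.27 and the genotypes overlapped. LΔRbfox2 replicate 4 had 6843 *Fh1* counts of 41646283, and LWT replicate 4 had 8747 of 38607789. *Glul* (log2 fold change −0.096, 95% interval −0.47 to 0.27) and *Glud1* (0.24, −0.31 to 0.73) did not pass the test.

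Regulators of these genes, among them CEBP and HNF factors, the glucagon and glucocorticoid receptors and coactivators, had a median log2 fold change of −0.23, with 14 of 15 below 0 (7146 of 13856 for all genes) and 0 called. With total counts 15 of 15 were below 0 (9948 of 13856 for all genes), after the length and GC correction 13 of 15 with a median of −0.12 (7547 of 13856), and without LΔRbfox2 replicates 3 and 4, 10 of 15 with a median of −0.13 (7726 of 14602). *Cebpb*, a bZIP factor of the fasting and acute-phase responses, was at 75.2, 74.5, 94.2 and 115 CPM in LWT and at 48.7, 75.1, 55.7 and 50.6 CPM in LΔRbfox2 replicates 1 to 4. LΔRbfox2 replicate 2 lay among the LWT livers and the other 3 below them (log2 fold change −0.64, SE 0.21, adjusted *P* = 0.504), and 312 bases of *Cebpb* exon are shared with *Tmem189* on the opposite strand. *Foxa2*, a hepatocyte forkhead factor, had a log2 fold change of −0.48 (SE 0.22, adjusted *P* = 0.511). After the length and GC correction *Cebpb* was at −0.51 and *Foxa2* at −0.42.

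Of 13 genes that respond to fasting hormones, 0 were called and 0 had an unadjusted *P* under 0.05, beside 0.0% and 9.79% of all genes (edgeR). Their median log2 fold change was −0.15, and −0.29 with total counts. The 2 with the smallest *P*, the clock gene *Per1* and the glucocorticoid-responsive gene *Fkbp5*, had log2 fold changes of −0.72 (SE 0.35) and −0.45 (SE 0.23), both with overlapping livers. After the length and GC correction they were −0.38 and −0.29. *Per1* reached 45.9 CPM in LWT replicate 4, against 11.7 to 26.4 CPM in the other 7 livers. The summed level of the list was 5002, 3856, 5204 and 6821 CPM in LWT and 5065, 4901, 4160.3 and 3499.97 CPM in LΔRbfox2 replicates 1 to 4. *Pck1* was its most abundant gene (mean 2467 CPM), so this sum does not describe the 13 genes evenly, of which 4 were above 0.

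Zonal markers other than the members were compared as well, since the cycle is periportal. Of 9 periportal genes 0 were called with edgeR and 5 were below 0 (median log2 fold change −0.15, −0.29 with total counts and 0.24 without LΔRbfox2 replicates 3 and 4). The 2 with the smallest *P* were *Hsd17b13*, a lipid droplet enzyme (0.38, SE 0.20), and *Ctsc*, a lysosomal protease (0.47, SE 0.28). With total counts they were 0.14 and 0.27, and after the length and GC correction 0.13 and 0.39. Of 13 pericentral genes 0 were called with edgeR (median −0.096, −0.36 with total counts, −0.19 after the length and GC correction and −0.30 without LΔRbfox2 replicates 3 and 4). Of the 13, 1 had livers that did not overlap, beside 2.28% of all genes in either direction. That gene was *Slc1a2*, a glutamate transporter of the hepatocytes around the central vein, at 92.4, 68.6, 93.3 and 115 CPM in LWT and 38.3, 46.5, 45.3 and 34.7 CPM in LΔRbfox2 replicates 1 to 4. The highest LΔRbfox2 liver lay below the lowest LWT liver (log2 fold change −1.16, SE 0.19), and edgeR's adjusted *P* was 0.504 over all genes tested. Whether *Slc1a2* was among the 10 genes called with DESeq2 is not given here. Its exons share 189 bases (1.44%) with the antisense gene *Gm13872*. *Gulo*, the last enzyme of vitamin C synthesis, had a log2 fold change of −0.30 (SE 0.16). After the length and GC correction *Slc1a2* was at −0.99 and *Gulo* at −0.37.

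The tissue label was checked with markers. Hepatocyte genes dominated, with *Alb* at a mean of 43617 CPM and 0 of 5 called, while the kidney genes *Umod* and *Slc12a1* had 0 counts in every liver, which allows up to 0.0468 to 0.0929 CPM (3 counts), and *Slc34a1* at most 2 counts. The summed level of 7 Kupffer cell genes was 77.2, 65.1, 113 and 67.3 CPM in LWT and 74.1, 37.3, 63.0 and 58.2 CPM in LΔRbfox2 replicates 1 to 4 (0 called, 2 lower at an unadjusted *P* under 0.05, most abundant gene *Clec4f*, whose livers did not overlap). Their median log2 fold change was −0.26, with 2 of 7 above 0. It was −0.51 with total counts, −0.62 after the length and GC correction and −0.51 without LΔRbfox2 replicates 3 and 4. For 3 erythroid genes the summed level was 325, 434, 336 and 232 CPM in LWT and 532, 371, 815 and 932 CPM in LΔRbfox2 replicates 1 to 4 (0 called, 2 higher at an unadjusted *P* under 0.05, most abundant gene *Hbb-bs*, with the livers of *Hba-a1* not overlapping), highest in the 2 livers of low TMM factor. Of all 13856 genes, 254 were lower and 1102 higher at that unadjusted *P* (edgeR), and 2.28% had livers that did not overlap, in either direction. Of 5 cholangiocyte genes, 4 could be tested and 0 were called. Their sum reached 60.9 CPM in LΔRbfox2 replicate 3 against 14.6 to 31.3 CPM elsewhere, with *Spp1* the most abundant (309 bases of its exons are shared with *Gm42793* on the same strand). No gene was called among 7 endothelial, 6 stellate, 1 lymphocyte and 2 enterocyte genes tested, the last led by *Fabp2*, a gut gene that was at 115.8 CPM on average while *Vil1* had at most 3 counts. *Fabp2* was the only one of these genes at an unadjusted *P* under 0.05 (log2 fold change 0.88, adjusted *P* = 0.504, edgeR). The other enterocyte gene tested, *Lgals4*, lay between 6.22 and 31.0 CPM and had the opposite direction (log2 fold change −0.45, adjusted *P* = 0.704, edgeR). The part of other cells in the members' levels was not tested.

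Finally, the 5 tested genes whose pattern over the 8 livers was most like the mean of the members (Pearson's r of log2 CPM with the mean standardized member) were the pseudogene *Gm6206* (r = 0.910), the interferon-induced gene *Ifit3b* (0.906), *Gm4737* (0.903), *Cth* (0.892), which encodes the cystathionine-cleaving enzyme of cysteine synthesis, and the protease gene *Ctsl* (0.886). They head a ranking of all tested genes outside the members on only 8 livers, and are given as a description. *Cth* was at 578, 666, 754 and 623 CPM in LWT and at 1094, 734, 1443 and 731 CPM in LΔRbfox2 replicates 1 to 4. Its LWT livers and LΔRbfox2 livers overlapped (log2 fold change 0.61, SE 0.24, adjusted *P* = 0.504), and under TMM scaling it was highest in LΔRbfox2 replicate 3. The log2 fold change of *Cth* was 0.36 with total counts and 0.34 after the length and GC correction.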

How the data were processed

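The authors extracted RNA from frozen livers, enriched poly(A) RNA and aligned paired-end reads to GRCm38 with TopHat2 2.0.11, its library type set to first strand (CASAVA 1.8.4 is also named in the submitters' processing notes). Reads per gene were counted with featureCounts, and the authors deposited these counts without normalization for 46078 identifiers. Its version, strand and multi-mapping settings are not given in the sources used here. Symbols, positions and exon lengths came from GENCODE M21 (GRCm38), which matched 45229 identifiers, and promoters from RefSeq (GRCm38.p6).

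The main test was edgeR 4.0.16 in R 4.3.3. Its filterByExpr defaults (minimum count 10, minimum total 15) kept 13856 genes, libraries were scaled by TMM, and glmQLFit and glmQLFTest compared 4 LΔRbfox2 with 4 LWT livers, without further terms. *P* values were adjusted over all genes by Benjamini-Hochberg, and a gene was called at an adjusted *P* of at most 0.05. Log2 CPM used a prior count of 2 and ratios a pseudocount of 0.5. Standard errors and 95% intervals came from limma-voom (limma 3.58.1). Permutation tests were exact and two-sided.

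The genes named are 8 of the 9 members, *Rbfox2*, the paralogues *Slc25a12* and *Slc25a2*, *Glul* and *Glud1*, the genes called or otherwise the 2 of smallest *P* in each list, and the 5 genes most like the members; markers are named beside their lists, and exon overlaps are given for the named list genes that had enough counts to be tested. Single results for some genes are not reported here, although counts and medians cover them. The members and lists were chosen with earlier results of these data known. Alternatives were DESeq2 1.42.0 (size factors, or its test), upper-quartile factors, total counts, removal of *Mup* genes, limma-voom, other filters, robust estimation, the replicate number as a block, a lowess correction (span 0.3) for gene length and GC content, and each liver left out. Figures and tables used Python with numpy, scipy, pandas and matplotlib. No 2 libraries of a genotype agreed within sampling noise (smallest chi-square per degree of freedom 106). Other diets and the splicing, protein and lipid measurements were not analysed here.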

Additional observations from a re-analysis of the deposited data

Results flagged for a closer look

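Among 64 groups of 4 livers examined (each named gene tested and each ratio, by genotype), 1 value lay far from the other 3 of its group, where chance alone gives about 3.2. The log2 ratio of *Asl* to *Ass1* was −1.73 in LWT replicate 1, against −2.14 to −2.08 in the other 3 LWT livers. In that liver, under TMM scaling, *Ass1* was the lowest of the 8 (2257 CPM) and *Asl* was mid-range (679 CPM). After the length and GC correction *Ass1* was lowest in LWT replicate 2 (11.11 log2 CPM, against 11.24 in LWT replicate 1). *Asl* was then at 9.13 and 9.25 log2 CPM in LWT replicates 2 and 1. Whether the ratio of LWT replicate 1 stands apart after that correction was not tested. Without it the difference between genotypes in this ratio was 0.060 in place of −0.035.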

How the results depend on the processing

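Under 22 alternatives, 0 of 9 members were called (smallest adjusted *P* 0.115, *Otc* without LΔRbfox2 replicate 2), and the median member log2 fold change ranged from −0.082 to 0.21. Genes called were 0 except with the DESeq2 test, which called 10, *Rbfox2* among them (−1.82; adjusted *P* = 0.000147, against 0.504 with edgeR and 0.0834 to 1.0 under the other alternatives). The cause was not tested. *Otc* kept its direction throughout, at 0.081 to 0.62. Apart from leaving out 1 liver, 106 of 126 member values kept their direction and 20 reversed. With total counts, *Ass1* was −0.082, *Asl* −0.065, *Nags* −0.19, *Slc25a15* −0.067, *Slc25a13* −0.23 and *Gls2* −0.14, with the median of all genes at −0.23. With upper-quartile factors *Nags* was −0.0039 and *Slc25a13* −0.025. *Slc25a13* was −0.015 with *Mup* genes removed, −0.017 with no filter, −0.077 after the length and GC correction and −0.075 with the replicate block as well. *Cps1* was 0.0023 with limma-voom and 0.00021 after the length and GC correction. Without LΔRbfox2 replicates 3 and 4, chosen after seeing the data, *Cps1* was 0.30, *Nags* −0.027 and *Slc25a13* −0.10; without LWT replicates 1 and 4 and LΔRbfox2 replicate 2, also chosen afterwards, they were 0.15, −0.059 and −0.079. The cause of these reversals was not tested.

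With 1 liver left out, 59 of 72 member values kept their direction and 13 reversed: *Cps1* ranged from −0.28 to 0.17, *Asl* from −0.024 to 0.32, *Nags* from −0.021 to 0.11, *Slc25a13* from −0.10 to 0.073 and *Gls2* from −0.057 to 0.17. The ratio differences ranged from −0.082 to 0.28 (*Cps1* to *Glul*), −0.024 to 0.34 (*Gls2* to *Glul*) and −0.20 to 0.12 (*Asl* to *Ass1*). The 1356 genes at an unadjusted *P* under 0.05 became 2531 without LWT replicate 2 and 3475 without LΔRbfox2 replicate 2, but 608, 852 and 505 without LWT replicates 1, 3 and 4, 1027, 550 and 404 without LΔRbfox2 replicates 1, 3 and 4, and 171 without both LΔRbfox2 replicates 3 and 4, with 0 called in each case.

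Replicate numbers mark different animals, and same-numbered livers deviated together with r = 0.13, −0.61, 0.12 and −0.51, so the numbers do not pair them. With the replicate block, 0 genes and 0 members were called (335 genes unadjusted) and *Rbfox2* was −1.88. The ratio differences of 0.11, 0.15 and −0.035 cannot change under such a balanced block, only their *P* can. Sign-flip permutation *P* was 0.750, 0.750 and 0.875, where the smallest possible is 0.125.

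The members had 1235 counts or more in each liver. *Slc25a2*, with 0 to 12 counts a liver, was too shallow for a test.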
